A study of Mus musculus with 3 samples.

Results

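Most of the genes described here carry glucose through glycolysis or handle the lactate and pyruvate it yields. Ckb and Ckmt1 are creatine kinases. The 37 genes were chosen by function, with earlier results of these data known. They are among the 21366 genes that could be named on the arrays through the RefSeq accession of each probe. All 37 had at least 1 probe. Mouse retina at postnatal day 12 was hybridised to 3 Agilent arrays of 1 colour, and each of the genotypes (wild-type, Otx2 KI and Crx KO) has a single array. No treatment is named in the labels. Strain, sex, the number of animals behind each RNA and the locus of the Otx2 KI are not stated there, nor is the part of Crx that is lost in the Crx KO.

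Glycolysis splits glucose to pyruvate, which is either reduced to lactate by lactate dehydrogenase or carried into mitochondria and oxidised. The mature retina is known for making much lactate even when oxygen is plentiful, and photoreceptors are thought to account for most of it. Lactate leaves and enters cells through monocarboxylate transporters, which need the chaperone basigin or its relative embigin at the membrane. Otx2 and Crx, the genes that the mutant labels name, both code for homeodomain factors that direct how photoreceptors develop.

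Each value is a scaled signal, the Cy3 intensity of a probe after every array was scaled by its 75th percentile to match wild-type, and each difference is on the log2 scale. Signals listed as 3 values follow the order wild-type, Otx2 KI, Crx KO, and paired differences give Otx2 KI before Crx KO, each minus wild-type. A gene counts as measured if both arrays of a comparison read its probe well above background, and as called at 2-fold or more. A lower mark of 1.5-fold is also given. With 1 array per genotype there is no spread between samples and no test, and every difference describes 3 RNA preparations. Both mutant arrays were set against the same wild-type array. The scanner software's error of a member's difference from wild-type in Otx2 KI was 0.20 to 0.22 for the measured members. Its median over all measured genes was also 0.20, so it serves as a nearly fixed margin. It was not taken from repeated spots and does not cover the spread between mice. Pfkm and Mpc2, printed at 10 spots each, had standard deviations between spots of 0.02 to 0.06 in log2 signal. Of the spots 63.5% to 67.1% were well above background and 0 were saturated. The Crx probe read 9790, 1062 and 7177, and the Otx2 probe 40886, 63860 and 62981. The labels do not place these probes on the altered alleles, so neither signal checks a genotype.

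The largest member differences belonged to a few genes, Pfkfb2, Hk2, Ckmt1 and Slc16a8, and 28 of the 36 measured members lay within 1.5-fold of wild-type on both mutant arrays. Members called lower in Otx2 KI numbered 4 of 36 (11.1%), where 2.53% of all 15809 measured genes were that low. Members called lower in Crx KO numbered 4 of 36 (11.1%), where 3.43% of all 16050 measured genes were. In the upward direction 0 members were called in either comparison, against 1.35% of all genes in Otx2 KI and 1.95% in Crx KO. At the mark of 1.5-fold 5 members were lower in Otx2 KI (13.9%, all genes 6.35%) and 6 in Crx KO (16.7%, all genes 8.25%), and 1 member, Pdk2, was higher in each (2.78%, all genes 3.66% and 5.02%). The members' median difference was -0.21 in Otx2 KI, where all measured genes had 0.03, and -0.18 in Crx KO, where all had -0.01. Below 0 were 26 of 36 members in Otx2 KI (72.2%, all genes 44.7%) and 30 of 36 in Crx KO (83.3%, all genes 51.5%). Many of these differences are small: 15 members in Otx2 KI and 16 in Crx KO differed from wild-type by less than the scanner error. The members were chosen with earlier results of these data known, so setting their shares beside those of all genes is not a test.

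**Figure D1:**
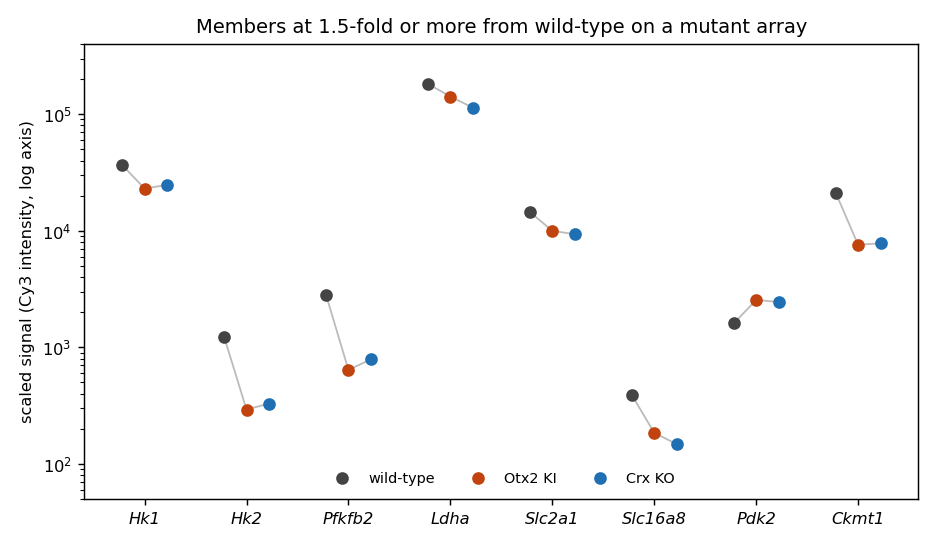
Scaled signal (log axis) of the 8 members at 1.5-fold or more from wild-type on a mutant array, with 1 point per array and no error bars because each genotype has 1 array. For 7 of the genes both mutant points lie below wild-type, with the widest gaps at Hk2 and Pfkfb2, and for Pdk2 both lie above it.

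The hexokinases, which trap glucose in the cell by phosphorylating it, were both lower, by unequal amounts. Hk2, the hexokinase that photoreceptors are known to use, read 1231, 292 and 328 on probe A_51_P204080. It was 4.21-fold lower in Otx2 KI (log2 -2.07) and 3.75-fold lower in Crx KO (-1.91). Both mutant readings are far below wild-type and close to each other. Hk1, the widely expressed hexokinase, read 36649, 23001 and 24719 on its brighter probe, which is 1.59-fold lower in Otx2 KI (-0.67) and 1.48-fold lower in Crx KO (-0.57). A dimmer Hk1 probe gave -0.64 and -0.63. Hk2 minus Hk1, as a difference of the differences, was -1.40 and -1.34.

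Of the glucose transporters, Slc2a1, which supplies the retina across vessels and pigment epithelium and into photoreceptors, read 14498, 9970 and 9338. It was 1.45-fold lower (-0.54) and 1.55-fold lower (-0.63). The neuronal transporter Slc2a3 differed by -0.20 and -0.06, at or below the scanner error. Vessel and red cell markers were measured for 12 of 12 genes, and their medians were -0.22 in Otx2 KI and -0.45 in Crx KO. In each comparison 2 of the 12 were 1.5-fold or more lower and 0 reached 2-fold, and their summed scaled signal was 29502, 25280 and 25218. These were the red cell genes Hba-a1 and Alas2 in Otx2 KI, and Alas2 and the vessel gene Cdh5 in Crx KO. Hba-a1, the brightest of the list in wild-type, read 9924, 6277 and 6931. Vessel genes ran from -0.44 (Tek) to 0.07 (Kdr) in Otx2 KI and from -0.59 (Cdh5) to 0.08 (Kdr) in Crx KO. Pigment epithelium markers were lower by more, with medians of -0.87 and -1.61 over 11 measured of 12. The part of either list in the Slc2a1 difference was not tested.

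The phosphofructokinase step is set by enzymes that make and break its activator, and among these Pfkfb2 had the largest difference. Pfkfb2, a bifunctional enzyme of that kind, read 2821, 640 and 787 on probe A_51_P184849. It was 4.41-fold lower in Otx2 KI (-2.14) and 3.58-fold lower in Crx KO (-1.84). Its relatives differed less. Pfkfb3 gave -0.32 and -0.34, Pfkfb4 gave 0.05 and -0.02, and Pfkfb1, with a wild-type signal of only 190, gave -0.54 and -0.58, just short of 1.5-fold in Crx KO. Pfkfb2 minus Pfkfb3, as a difference of the differences, was -1.82 and -1.51.

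The catalytic phosphofructokinase subunits moved in different directions by small amounts. Pfkl, the liver-type subunit, was 1.29-fold and 1.37-fold lower (-0.36 and -0.45). Pfkm, the muscle-type subunit, was 1.22-fold and 1.29-fold higher (0.29 and 0.37). Its probe is printed at 10 spots, which read 6840 to 7161 in wild-type, 8165 to 8883 in Otx2 KI and 8742 to 9743 in Crx KO. The mutant spots do not overlap those of wild-type, although spots of 1 array share their RNA and are not replicates of the genotype. Pfkp, the platelet-type subunit, gave -0.29 and -0.05.

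The enzymes that do the bulk work of the pathway differed little. In the upper part, Gpi1 (-0.08 and -0.10), Aldoc (-0.15 and -0.08) and Tpi1 (0.01 and -0.01) lay within the scanner error in both comparisons. Aldoa, an aldolase, read 182297, 147380 and 154214, which is 1.24-fold and 1.18-fold lower (-0.31 and -0.24). Tpi1 read 30781, 30968 and 30557 on its brighter probe, nearly level across the arrays.

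In the lower part, 6 of 6 genes were below 0 in both comparisons, from -0.30 to -0.11 in Otx2 KI and from -0.53 to -0.00 in Crx KO. Gapdh, often used as a reference gene, read 200009, 176851 and 175216 on its brightest probe, which is 1.13-fold and 1.14-fold lower. Its 7 probes ranged from -0.35 to -0.18 in Otx2 KI and from -0.41 to -0.19 in Crx KO. Pgk1 gave -0.30 and -0.33, Pgam1 -0.21 and -0.27, and Eno1 -0.11 and -0.08. The neuronal enolase Eno2 gave -0.30 in Otx2 KI and -0.00 in Crx KO. Pkm, the pyruvate kinase whose splice forms a single probe does not separate here, read 39157, 34374 and 27128, which is 1.14-fold lower in Otx2 KI (-0.19) and 1.44-fold lower in Crx KO (-0.53). Gapdh, Eno1, Pgam1 and Ldha have near-identical copies in the genome whose transcripts could share a probe, so their values are less certain.

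Of the lactate dehydrogenases, only Ldha differed from wild-type by more than the scanner error. Ldha, the subunit that favours turning pyruvate into lactate, read 181978, 141621 and 113710 on its brightest probe, at differences of -0.36 and -0.68. Its dimmer probes gave larger differences. A probe at 25356 in wild-type gave -0.50 and -0.98, and a probe at 6059 gave -0.62 and -1.05, so that Ldha reached 2-fold in Crx KO on 1 of its 3 probes. On all 3 probes Crx KO read below Otx2 KI. Ldhb, the subunit that favours the reverse reaction, read 14138, 15527 and 15974 (0.14 and 0.18), within the scanner error.

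**Figure D2:**
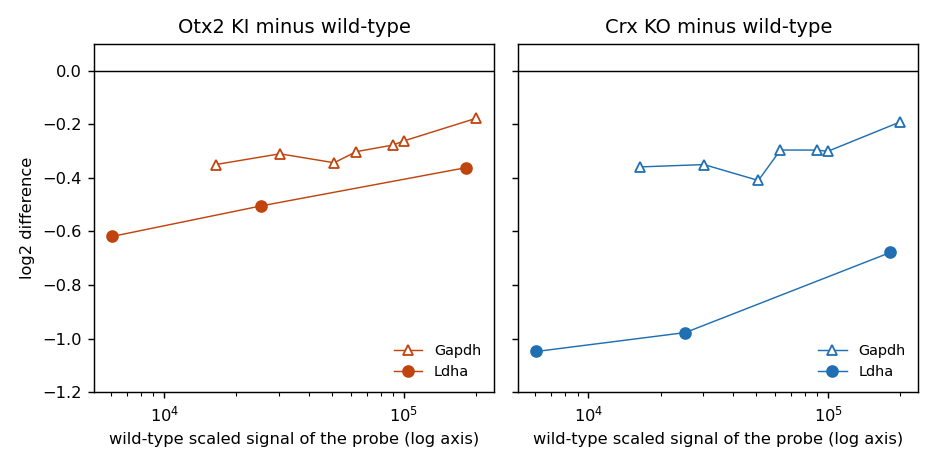
Log2 difference from wild-type of each probe of Gapdh (7 probes, open triangles) and Ldha (3 probes, filled circles) against the probe's wild-type scaled signal (log axis), for Otx2 KI on the left and Crx KO on the right, with 1 array per genotype and no error bars. The brightest probe of each gene has the difference nearest to 0, at -0.36 and -0.68 for Ldha and -0.18 and -0.19 for Gapdh.

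Among the lactate transporters, Slc16a8 was the one past 2-fold. This carrier is known from the pigment epithelium, where it passes lactate towards the blood. It read 389, 185 and 148 on probe A_51_P128696, which is 2.11-fold lower (-1.08) and 2.64-fold lower (-1.40). With normexp background correction it was within 2-fold in Otx2 KI (-0.84) and at -1.11 in Crx KO. Most pigment epithelium and melanocyte markers were lower too. Of 11 measured of 12, 9 were 1.5-fold or more lower in Otx2 KI and 10 in Crx KO, with medians of -0.87 and -1.61. Mitf stayed near wild-type (-0.09 and 0.04). The summed scaled signal of the list was 26159, 13751 and 9363, with Dct and Ttr its brightest genes. Rpe65 read 865, 507 and 506, and Best1, which was not well above background on any array, read 2.33, 2.84 and 2.24. The part of these markers in the Slc16a8 difference was not tested.

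The other lactate carriers differed less. Slc16a3, known from strongly glycolytic cells, read 4146, 3147 and 3306 (-0.40 and -0.33). Slc16a1 was dim, at 66.4, 54.2 and 62.5 (-0.29 and -0.09). Slc16a7, the high-affinity carrier of neurons, gave 0.18 and -0.18 on its brightest probe and -0.26 and -0.46 on another, so its direction in Otx2 KI depends on the probe. Bsg, which encodes basigin, read 6489, 7047 and 7055 (0.12 and 0.12), within the scanner error.

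Genes for the entry of pyruvate into mitochondria held the 1 member that was higher at 1.5-fold. Pdk2, a kinase that switches off pyruvate dehydrogenase, read 1602, 2549 and 2443, which is 1.59-fold higher (0.67) and 1.53-fold higher (0.61). Its relative Pdk1 read 273, 279 and 197, close to wild-type in Otx2 KI (0.03) and 1.38-fold lower in Crx KO (-0.47). Pdk3 gave -0.23 and -0.43. Pdk4 read 12.7 in wild-type and was not well above background on the mutant arrays, at 8.49 and 9.96. Against the lowest signal that could be told from background there it was at least 1.02-fold lower in Otx2 KI. Against its own Crx KO reading it was 1.28-fold lower, which is not a bound. That log2 difference, -0.35, is smaller than its scanner error of 0.43. The target of these kinases, Pdha1, gave 0.09 and 0.10. The mitochondrial pyruvate carrier genes Mpc1 (14088, 13858 and 13486) and Mpc2 (7949, 7842 and 7515) lay within 0.08 of wild-type.

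The creatine kinases, which shuttle high-energy phosphate from mitochondria to sites of use, also parted. Ckmt1, the mitochondrial enzyme, read 21188, 7568 and 7803 on probe A_55_P2072656. It was 2.80-fold lower (-1.49) and 2.72-fold lower (-1.44). Ckb, the cytosolic brain enzyme, read 37104, 54217 and 45258, which is 1.46-fold higher (0.55) and 1.22-fold higher (0.29). Its other probe gave 0.55 and 0.31. Ckmt1 minus Ckb, as a difference of the differences, was -2.03 and -1.73.

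**Figure D3:**
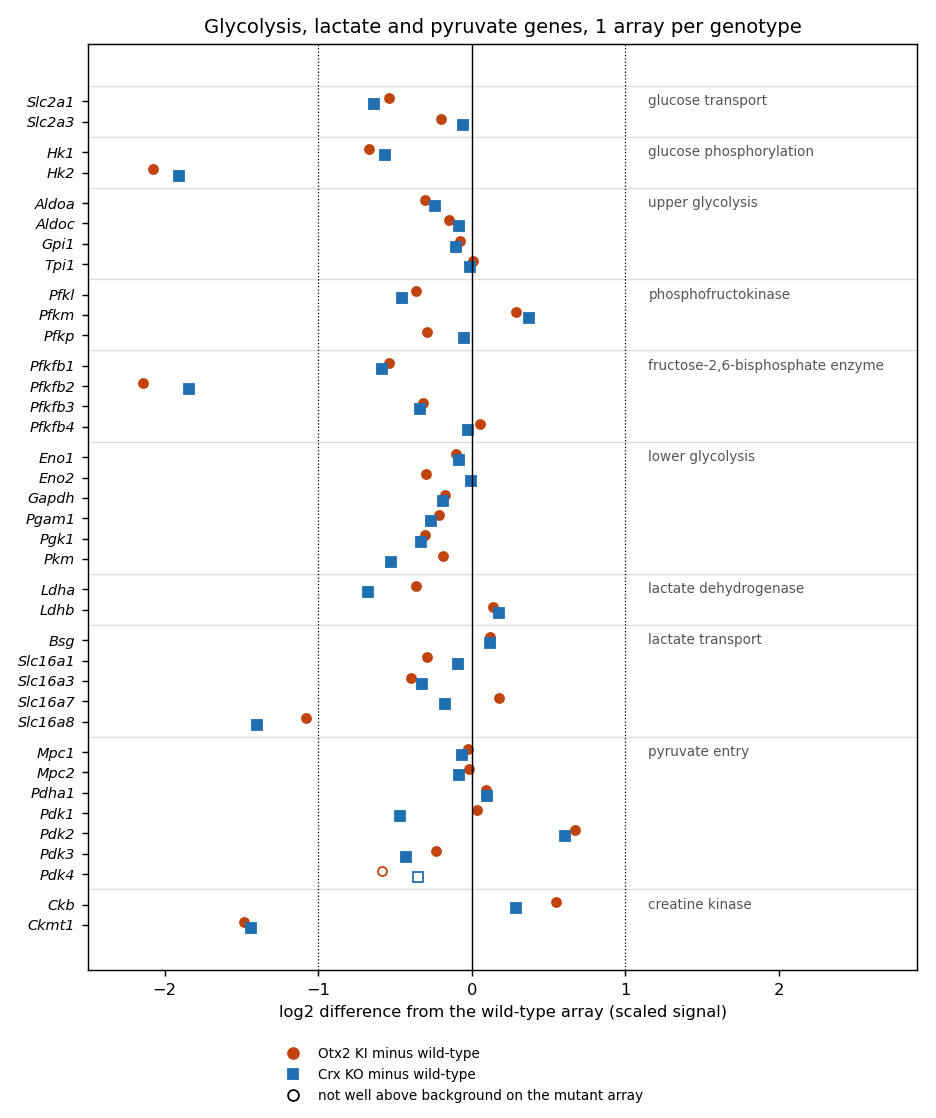
Log2 difference from wild-type of each of the 37 members, ordered by role, for Otx2 KI (circles) and Crx KO (squares), with dotted lines at 2-fold, 1 array per genotype and no error bars. Pfkfb2, Hk2, Ckmt1 and Slc16a8 lie beyond the lower line, no member lies beyond the upper line, and open symbols mark Pdk4.

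Set against each other, the mutant arrays differed by less than 1.5-fold at each of the 36 measured members, so 0 were called in either direction. With 1 array each this does not show that the genotypes act alike. Among all 15806 measured genes 2.31% were lower and 2.44% higher by that much in Otx2 KI than in Crx KO, and 0.645% and 0.677% at 2-fold. The member differences ran from -0.30 (Pfkfb2) to 0.50 (Pdk1), and 27 of 36 were smaller than the scanner error. Those above the error included Pdk1, Pkm (0.34) and Ldha (0.32), each with its lower reading in Crx KO, and Pfkfb2 and Eno2 (-0.30 each), with their lower readings in Otx2 KI.

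Rods make up most of the cells of a mouse retina, and their markers were lower in both mutants. All 10 rod markers were well above background on each array. Called lower were 7 of 10 in Otx2 KI (median -1.81) and 8 of 10 in Crx KO (median -1.30). Nrl, a factor of rod fate, read 145234, 78190 and 71962. The summed rod signal was 806030, 287018 and 302731. Of the cone markers 7 of 8 were measured, with medians of -1.40 and -1.97. In whole retina, fewer cells of a type and less RNA per cell cannot be told apart, and the part of rod and cone markers in the member differences was not tested. Markers of Muller glia, the supporting cells that also carry out glycolysis, had medians of 0.11 and 0.26, and 0 of 10 reached 2-fold. Their largest differences were Kcnj10 (0.10 and 0.87) and Car2 (0.63 and 0.80). Amacrine and ganglion cell markers had medians of 0.09 and 0.11, microglia markers 0.11 and -0.26, and bipolar markers -0.18 and -0.07, where Car8 stood at -1.83 in Crx KO.

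Other genes of sugar metabolism were taken from a list of 51, of which 41 were measured in each comparison with wild-type. In Otx2 KI 4 were lower by 2-fold or more (9.76%, all genes 2.53%) and 1 was higher (all genes 1.35%). In Crx KO 3 were lower (7.32%, all genes 3.43%) and 4 higher (all genes 1.95%). The list medians were -0.08 and 0.02. The largest difference was that of Nxnl1, which encodes the rod-derived cone viability factor, a secreted thioredoxin-like protein known to bind a basigin splice form on cones and speed their glucose uptake. It read 9048, 636 and 569 on its brighter probe, which is 14.2-fold lower (-3.83) and 15.9-fold lower (-3.99). Its other probe read 4317, 555 and 635, which is 7.77-fold and 6.80-fold lower (-2.96 and -2.77), so the size, and which mutant read lower, depend on the probe. Tigar, a phosphatase that opposes phosphofructokinase, read 3634, 1404 and 1249, 2.59-fold and 2.91-fold lower. Slc16a6, another monocarboxylate transporter family gene, read 11937, 4821 and 6288, 2.48-fold and 1.90-fold lower. Eno4, an enolase family gene, gave -1.08 and -1.17, and -0.53 and -0.63 with normexp. Txnip, an inhibitor of glucose uptake, read 505, 1256 and 1275, which is 2.48-fold and 2.52-fold higher (1.31 and 1.34).

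Of 9 pentose phosphate genes 1 was called higher in each comparison, where 1.35% and 1.95% of all measured genes were, and with lists this short nothing is read from the counts. H6pd, a glucose-6-phosphate dehydrogenase of the endoplasmic reticulum, read 212, 788 and 664, which is 3.71-fold and 3.13-fold higher (1.89 and 1.65). The list medians were 0.01 and -0.06. Of 18 tricarboxylic acid cycle genes 0 were called in either comparison, with medians of 0.05 and 0.02. Suclg2, a subunit of succinate-CoA ligase, was the 1 past 1.5-fold, at 0.64 and 0.79.

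**Figure D4:**
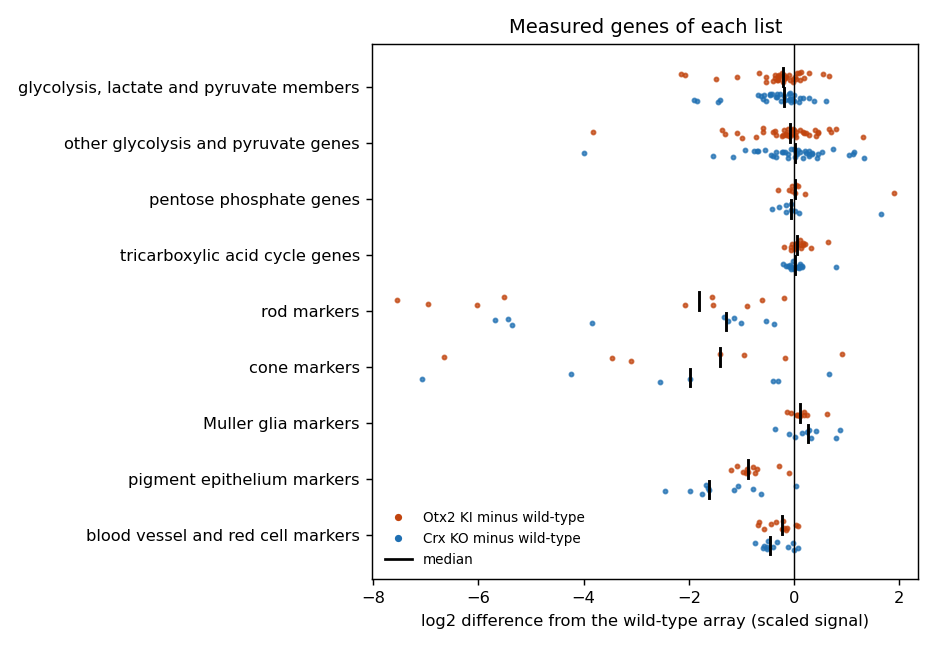
Log2 difference from wild-type of every measured gene of the lists named on the axis, for Otx2 KI (orange) and Crx KO (blue), with a black bar at each median and vertical jitter for legibility. The members' medians lie at -0.21 and -0.18, the tricarboxylic acid cycle medians at 0.05 and 0.02, and the rod medians at -1.81 and -1.30.

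To show the sequence ahead of the members with the largest differences, the 250 bases before each start were read from RefSeq for 34 of the 37 members, on GRCm38.p6. Slc2a3, Slc16a7 and Bsg were not in the table. The motifs searched on both strands were TAATCC, the core bound by Crx and Otx factors, and ACGTG, the core of the hypoxia response element, whose given and reversed forms overlap in CACGTG. The called members are shown with Pfkfb4, the relative of Pfkfb2 that stayed near wild-type, and with Ldha, and capitals mark either motif. The windows shown for Pfkfb4 and Ldha are among the 5 of 55 member windows that hold TAATCC. They are therefore not typical of the members that were not called. The Pfkfb2 start shown holds ACGTG, while its start 1 holds neither motif.
Hk2, chr6:82774455-82774704, minus strand: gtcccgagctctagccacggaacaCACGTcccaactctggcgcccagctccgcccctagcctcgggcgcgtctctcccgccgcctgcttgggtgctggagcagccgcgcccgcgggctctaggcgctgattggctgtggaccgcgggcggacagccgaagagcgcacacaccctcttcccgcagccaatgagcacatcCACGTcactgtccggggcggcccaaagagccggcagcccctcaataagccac
Pfkfb2, start 2 of 3, chr1:130715822-130716071, minus strand: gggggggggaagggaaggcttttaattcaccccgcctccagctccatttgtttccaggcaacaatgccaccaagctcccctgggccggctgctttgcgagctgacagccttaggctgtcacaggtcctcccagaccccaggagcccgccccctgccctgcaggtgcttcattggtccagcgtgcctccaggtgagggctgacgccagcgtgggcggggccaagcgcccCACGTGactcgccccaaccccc
Ckmt1, start 1 of 2, chr2:121357526-121357775, plus strand: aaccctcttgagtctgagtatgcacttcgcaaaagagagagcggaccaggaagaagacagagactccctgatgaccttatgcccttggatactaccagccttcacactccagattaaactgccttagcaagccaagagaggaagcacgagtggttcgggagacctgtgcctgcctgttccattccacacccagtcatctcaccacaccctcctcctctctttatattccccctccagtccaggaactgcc
Slc16a8, chr15:79254749-79254998, minus strand: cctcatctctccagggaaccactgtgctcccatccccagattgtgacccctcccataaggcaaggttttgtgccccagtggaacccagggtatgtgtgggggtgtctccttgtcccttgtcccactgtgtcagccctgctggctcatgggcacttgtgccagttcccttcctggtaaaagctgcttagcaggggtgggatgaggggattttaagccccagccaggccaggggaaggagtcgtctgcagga
Pfkfb4, chr9:108991652-108991901, plus strand: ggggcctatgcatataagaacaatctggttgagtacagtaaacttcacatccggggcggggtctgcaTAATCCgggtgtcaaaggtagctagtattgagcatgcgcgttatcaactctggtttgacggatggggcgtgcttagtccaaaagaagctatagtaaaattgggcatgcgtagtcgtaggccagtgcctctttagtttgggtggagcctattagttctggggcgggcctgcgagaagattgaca
Ldha, start 2 of 2, chr7:46846832-46847081, plus strand: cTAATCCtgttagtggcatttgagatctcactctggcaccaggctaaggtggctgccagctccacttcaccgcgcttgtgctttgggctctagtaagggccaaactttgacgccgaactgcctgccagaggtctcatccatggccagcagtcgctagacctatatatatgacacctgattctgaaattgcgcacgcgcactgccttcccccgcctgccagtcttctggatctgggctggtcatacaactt
None of the 4 called members has TAATCC in this window, at any of the 7 starts listed for them. With a share of 6.25% among windows of all genes, 7 starts are too few to read anything from that. The motif occurs 183 bases before the Pfkfb4 start and 249 bases before the Ldha start shown, and at a start of Aldoc, Pfkp and Pfkm. That is 5 of the members' 55 windows (9.09%), where 6.25% of 32851 windows of all genes hold it. ACGTG occurs at 18 of the 55 (32.7%), against 16.6% of all windows, and the members' windows are richer in G and C, with a median of 60.4% against 52.4%. Among the called members Hk2 has it at 52 and 226 bases before its start and Pfkfb2 as CACGTG at start 2 and once at start 3, while Ckmt1 and Slc16a8 have none. The other Ldha start has 5 matches, a count that takes each CACGTG on both strands. A match describes letters only, and the arrays do not tell the starts of a gene apart.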

How the data were processed

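Total RNA from retina was amplified and labelled with Cy3, per the labels' protocols. The deposited scanner files hold intensity values written by Agilent Feature Extraction 12.0.3.1 for a design on mm9, per the file headers, and the processed signal after the software's background subtraction was used. The arrays lay on 1 slide. Control and outlier spots (126 to 136 an array) were left out, spots of a probe were averaged as log2 values, and each array was scaled to the 75th percentile of its spots. Accessions were matched without versions to RefSeq genes of GRCm38.p6, which named 28331 of 55681 probes (50.9%). The probe with the highest mean signal stood for a gene. Where a gene was dim on 1 array, only a bound is printed. It was taken from the lowest scaled signal well above background on that array (10.2, 12.4 and 8.33 in wild-type, Otx2 KI and Crx KO). A dim reading above that signal was used in its place, and the ratio is then not a bound.

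The members and lists were chosen with earlier results of these data known. Members at 1.5-fold or more, the brightest of each role, and the largest differences of each other list were named. Nothing was tested, since each genotype has 1 array, whose number limits the precision. Steps were tested on simulated data. The normexp alternative (limma 3.58.1, offset 50) used the median spot signal. Python 3.11.15, numpy 2.4.6 and pandas 2.3.3 were used. The authors' deposited value table also holds intensity, equal to the processed signal times 1 constant per array (2.49, 2.54 and 2.61), with column medians of 129.8, 125.7 and 135.8. It is on a linear scale without centring. The origin of the constants is not stated in the labels.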

Additional observations from a re-analysis of the deposited data

How the results depend on the processing

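Each comparison was recomputed with normexp background correction, quantile normalization, centring on the median of measured genes, no filter on dim probes, the mean over all probes of a gene, and the authors' deposited value table. No called member changed sign under any of these alternatives. With normexp 3 members were called lower in Otx2 KI and 4 in Crx KO, and under each other alternative 4 in both. The median member difference between the mutants, 0.02, was -0.05 after quantile normalization. Beyond the scanner error moved 3 of 108 member values with normexp and 4 with the mean over probes. Over all genes, normexp gave 130 higher in Otx2 KI, 182 higher and 328 lower in Crx KO, and 35 higher and 50 lower in Otx2 KI against Crx KO. Dropping the filter gave 498 higher and 906 lower in Otx2 KI, 789 and 1075 in Crx KO, and 394 and 581 between the mutants, and brought Pdk4 into the members. Calls between the mutants that were higher in Otx2 KI made up 51.2% of all such calls, 41.2% with normexp and 40.4% without the filter. No paired analysis was possible because each genotype has 1 array. Signal over background limits Pdk4, Slc16a1 and Slc16a7 most.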

Other observations

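Some sugar metabolism genes outside the members had their highest signal in Crx KO, and they were chosen after their values were seen. Pgk2, the phosphoglycerate kinase of the testis, read 6.11, 8.03 and 75.1 (wild-type, Otx2 KI, Crx KO), at least 7.39-fold higher than in wild-type. Ckm, the muscle creatine kinase, read 2.43, 2.97 and 29.4, at least 2.89-fold higher. Fbp1, a gluconeogenic enzyme known from liver and kidney, was low but measured on all 3 arrays, at 29.0, 28.8 and 63.6. Slc2a4, the insulin-responsive glucose transporter, read 276, 378 and 569, which is 1.37-fold higher in Otx2 KI and 2.06-fold higher in Crx KO.

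The rule that lets the brightest probe stand for a gene matters for the most abundant enzymes. Ldha on its dimmest probe was past 2-fold in Crx KO (-1.05), and on its brightest it was not (-0.68). Genes with several probes, all well above background, were then compared by their brightest and dimmest probe, a comparison added after seeing the data. It took probes at least 2-fold apart in signal, with differences of the same sign and a mean size of 0.2 or more. Where the brightest probe read 50000 or more, it had the smaller difference in 21 of 27 genes in Otx2 KI and in 17 of 19 in Crx KO, with a median ratio of brightest to dimmest of 0.70 in both. Where it read 5000 to 50000, it was the smaller in 146 of 248 genes (ratio 0.95) and 152 of 255 (0.91). Where it read 500 to 5000, it was the smaller in 352 of 575 genes (ratio 0.89) and 375 of 629 (0.90), so the ratio did not move steadily with brightness. No spot was saturated, and the cause was not tested. Differences of members with only 1 very bright probe, such as Aldoa and Eno1, have no dimmer probe to set beside them.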
